A study of Mus musculus with 6 samples.

Results

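Genes of cholesterol synthesis and sterol sensing were examined in inguinal white adipose tissue (iWAT), a subcutaneous fat depot of the mouse. A list of 35 gene symbols was matched to the deposited count table, which has 37024 rows carrying 19509 symbols, and 25 of the symbols had at least 1 row. Of these 25, 21 passed the filter on low counts and were tested, 3 (*Mvd*, *Insig2* and *Erlin1*) fell below it, and *Tm7sf2* was at 0 in every library. The 10 symbols for which no row was analysed here were *Hmgcs1*, *Mvk*, *Fdps*, *Fdft1*, *Lss*, *Ebp*, *Scap*, *Soat1*, *Erlin2* and *Msmo1*, and the last of these is the later name of *Sc4mol*, which had a row.

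*Lexis* is a long noncoding RNA of the mouse that is expressed in white fat, and the study asked what its loss from adipocytes does to this tissue. RNA was sequenced from iWAT of C57BL/6 mice fed a Western diet, which is rich in fat and cholesterol, for 12 weeks. The AdWT group comprised 3 libraries from littermate controls that carried floxed *Lexis* alleles (*Lexis* fl/fl) without Cre, and the AdKO group comprised 3 libraries from *Lexis* fl/fl mice that also carried *Adipoq*-Cre. Both groups shared the floxed alleles and the diet. The adiponectin promoter drives this Cre in adipocytes, so the other cells of the depot keep an intact allele. Most mice of the study were young adults, but the sex and age of these 6 were not given individually in the sources used here. The *p* values measure only the spread between these 6 samples.

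Cells make cholesterol from acetyl-CoA through mevalonate, isoprenoid diphosphates, squalene and lanosterol, and the enzymes of this route are induced together when membranes of the endoplasmic reticulum are poor in sterol. The escort protein Scap then carries the precursor of the *Srebf2* product to the Golgi, where the proteases *Mbtps1* and *Mbtps2* release the transcription factor, whereas Insig proteins hold the complex back when sterols are abundant. Adipocytes store a large pool of free cholesterol, much of it taken up from lipoproteins.

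The 6 libraries held between 14470542 and 17882713 counts. Levels are given as CPM, counts scaled to library size with edgeR's trimmed mean of M values (TMM). The targeted gene, *4930412L05Rik* in this annotation, had 8, 9 and 8 counts in the libraries labelled AdWT and 21, 11 and 13 counts in those labelled AdKO, so it was not lower in the latter. Whether the counted sequence lies inside the deleted part is not given in the sources used here, and every direction below is therefore between libraries as labelled. The adipocyte markers summed to 46110, 50216 and 54542 CPM in AdWT and to 41956, 41426 and 41302 CPM in AdKO, over 4 of 6 markers with a row, with 3 lower and 1 higher in AdKO. The skeletal muscle list moved with the groups, at 30.5, 152 and 11.8 CPM in AdWT against 2.57 to 3.30 CPM in AdKO over 5 of 6 markers with a row, with *Ckm* at 0 in every AdKO library, and its part in the results below was not tested. Replicate 3 of each group stood apart in 2 further marker lists. The hepatocyte list (2 of 4 markers with a row) summed to 394 and 188 CPM there against 101 to 134 CPM in the other libraries, and the epithelial list (3 of 4) to 19.6 and 42.1 CPM against 0.894 to 1.31 CPM.

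No member was called as different between the groups. Of the 21 tested, the number at an adjusted *p* under 0.05 was 0 by edgeR's quasi-likelihood test, adjusted by the Benjamini-Hochberg method over all 9872 rows tested, where 0% of rows were called. It was also 0 by DESeq2, which called 0.152% of 11217 rows. At an unadjusted *p* under 0.05 the number of members was 0 by edgeR, against 5.73% of all rows. The smallest unadjusted *p* of a member was 0.0540 and its adjusted *p* was 0.851, for *Npc2*. Of the 21 members, 14 were lower in the AdKO libraries and 7 were higher, against 48.3% of all rows lower. Their median log2 fold change was -0.090, beside 0.0071 over all rows. The groups did not overlap for 2 members, *Mbtps2* and *Npc2*, against 11.9% of all rows. In bulk tissue, fewer cells of a type and less RNA per cell cannot be told apart.

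**Figure D1:**
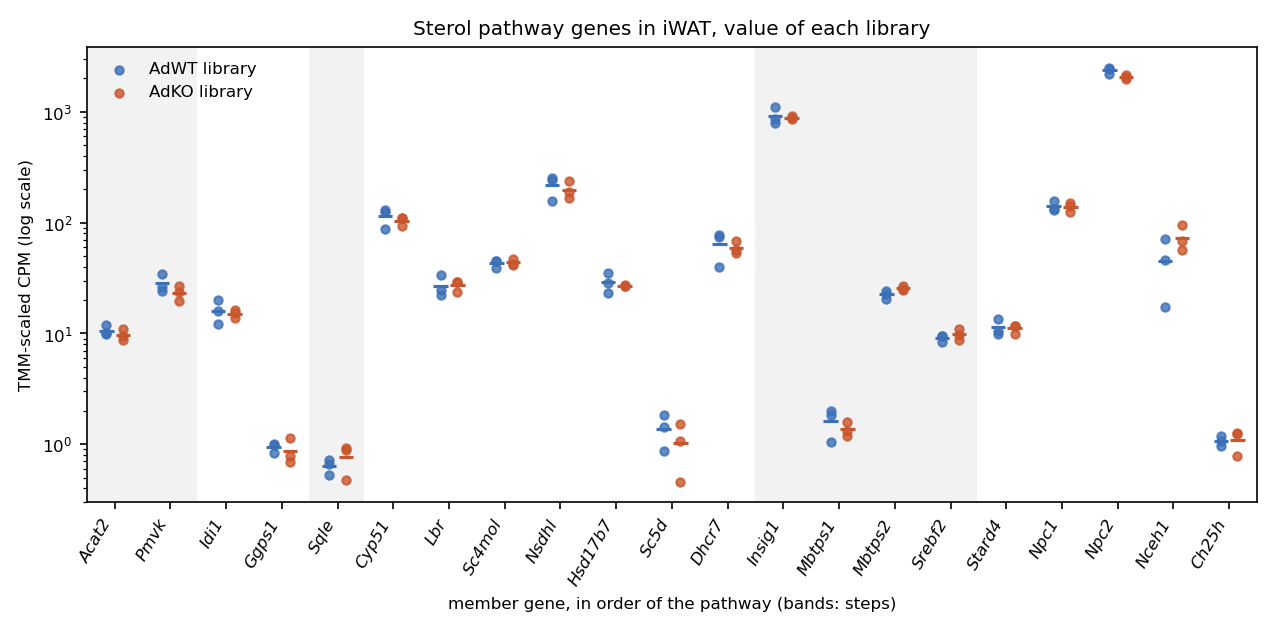
TMM-scaled CPM on a log scale of the 21 tested genes in the 3 AdWT (blue) and 3 AdKO (orange) libraries, each point 1 library and each dash a group mean, with shading that alternates by pathway step. The groups overlap for every gene except *Mbtps2* and *Npc2*, and the points of *Nceh1* and *Sc5d* are the most widely scattered.

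Levels can be compared between genes only per length, and only where 1 row stands for the gene, which was the case for 9 members. Per kilobase of annotated exon the highest of these in AdWT was *Npc2*, which encodes a lysosomal protein that hands cholesterol to *Npc1*, at 729 ± 51.9 CPM per kb (SD, *n* = 3). *Insig1*, the sterol-dependent brake, followed at 348 ± 63.8 CPM per kb, and *Nsdhl*, a dehydrogenase that helps to remove methyl groups from lanosterol derivatives, at 76.0 ± 18.4 CPM per kb. Next came *Cyp51* at 26.6 ± 5.39 and *Dhcr7* at 17.0 ± 5.54 CPM per kb, then *Nceh1* at 8.58 ± 5.18, *Lbr* at 7.60 ± 1.68 and *Idi1* at 5.60 ± 1.37 CPM per kb. From *Cyp51* down to *Idi1*, each gene and the next in order overlapped within their SDs, whereas *Npc2*, *Insig1* and *Nsdhl* were each clear of the next. *Ch25h*, an enzyme that makes an oxysterol, was lowest at 0.791 ± 0.0820 CPM per kb. Both *Npc2* and *Insig1* were thus above the 5 enzymes of the route that could be compared in this way, and the other enzymes were not compared.

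The other 16 members with a row had several rows each, and their levels may be understated. Over the whole table, the share of symbols with at least 1000 counts in total was 28.0% for symbols with 1 row, 23.1% with 2 rows, 16.3% with 3 rows and 12.4% with 4 or more. The share of symbols at 0 did not follow suit, at 31.8%, 22.4%, 20.5% and 15.2% in the same order. Among the members, all 9 with 1 row were tested, with a median total of 5793 counts, whereas 12 of the 16 with several rows were tested, with a median of 514 counts. All 4 members below the filter or at 0 belonged to the second kind. How reads shared by several rows were counted is not given in the sources used here.

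**Figure D2:**
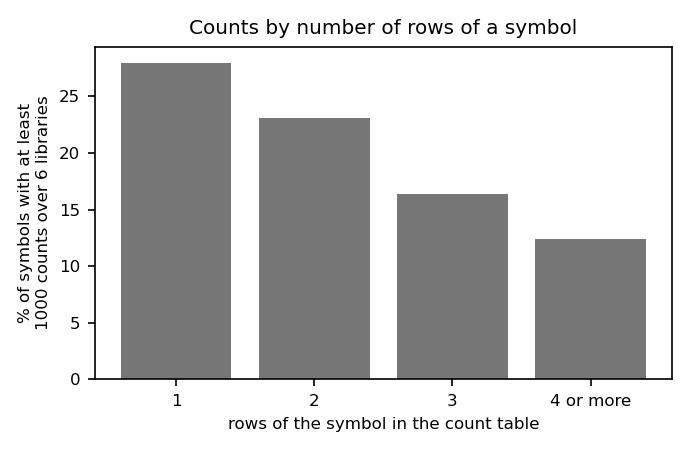
Share of symbols in the count table, in percent, with at least 1000 counts summed over the 6 libraries, by the number of rows that carry the symbol. The share falls from 28.0% for symbols with 1 row to 12.4% for those with 4 or more.

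The first steps lead from acetyl-CoA to mevalonate and its activated form. *Acat2*, the cytosolic thiolase, measured 10.1, 12.0 and 9.84 CPM in AdWT and 9.49, 10.9 and 8.65 CPM in AdKO. *Pmvk*, which phosphorylates mevalonate phosphate, measured 26.5, 34.2 and 24.4 CPM in AdWT and 19.5, 23.9 and 26.8 CPM in AdKO. The groups overlapped for both genes, although 2 of the 3 *Pmvk* values in AdKO lay below every AdWT value. The log2 fold changes were -0.14 (SE 0.152) for *Acat2* and -0.28 (SE 0.168) for *Pmvk*, and edgeR's adjusted *p* was 0.885 and 0.853. A second *Pmvk* row with few counts, 96 against 2434, went the other way, with 0.916, 1.02 and 0.870 CPM in AdWT and 1.10, 1.19 and 1.08 CPM in AdKO. All its AdKO values were above all its AdWT values, with a log2 fold change of 0.26 (SE 0.246) and an adjusted *p* of 0.885 by edgeR, and the rows summed gave -0.25 (SE 0.163). *Mvd*, the decarboxylase of this stretch, had only 1, 1 and 2 counts in AdWT and 2, 1 and 0 counts in AdKO and was not tested.

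Isoprenoid diphosphates come next. *Idi1*, which interconverts the activated isoprene units, measured 15.8, 20.1 and 12.2 CPM in AdWT and 13.9, 15.2 and 16.2 CPM in AdKO, a log2 fold change of -0.090 (SE 0.187). The 3 AdKO values all fell within the range of AdWT. *Ggps1*, which makes the side product geranylgeranyl diphosphate, was near 1 CPM in each library, from 0.837 to 1.004 CPM in AdWT and from 0.687 to 1.14 CPM in AdKO. From squalene to lanosterol, *Sqle* alone was tested. This epoxidase, a rate-limiting enzyme of the route, ranged from 0.523 to 0.717 CPM in AdWT and from 0.481 to 0.922 CPM in AdKO, with a log2 fold change of 0.25 (SE 0.372). With 65 counts over all 6 libraries, its 95% interval ran from -0.62 to 1.12, which excludes neither no change nor a doubling in AdKO.

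The stretch from lanosterol to cholesterol was the best measured, with 7 genes tested, of which 5 were lower and 2 higher in AdKO, the median being -0.12 on the log2 scale. *Nsdhl* had 242, 252 and 157 CPM in AdWT and 166, 239 and 190 CPM in AdKO. *Cyp51*, the demethylase that opens this stretch, had 124, 131 and 87.7 CPM in AdWT and 93.0, 110 and 109 CPM in AdKO. *Dhcr7*, the reductase of the last step, had 77.7, 74.96 and 40.1 CPM in AdWT and 53.1, 68.7 and 56.2 CPM in AdKO. In all 3 genes the lowest of the 6 libraries was AdWT replicate 3 and the other 2 AdWT libraries were above every AdKO library. Their log2 fold changes were -0.13 (SE 0.202) for *Nsdhl*, -0.13 (SE 0.153) for *Cyp51* and -0.12 (SE 0.241) for *Dhcr7*, with edgeR's adjusted *p* at 0.913, 0.885 and 0.934.

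*Hsd17b7*, a ketosteroid reductase of the same stretch, had 28.6, 35.1 and 23.4 CPM in AdWT and 26.8, 26.9 and 27.5 CPM in AdKO, the tightest AdKO group among the members. The methyl sterol oxidase *Sc4mol* had 45.1, 44.95 and 39.3 CPM in AdWT and 41.9, 42.6 and 47.4 CPM in AdKO. *Lbr*, which is both a sterol reductase and a lamin-binding protein of the nuclear envelope, had 33.8, 24.7 and 22.5 CPM in AdWT and 29.4, 29.0 and 23.9 CPM in AdKO. The log2 fold changes of *Sc4mol* and *Lbr* were both near 0, at 0.026 (SE 0.0932) and 0.024 (SE 0.170). For *Sc4mol* the 95% interval, -0.19 to 0.24, was among the narrowest of the set. *Sc5d*, a desaturase, was low and scattered, at 1.44, 1.85 and 0.870 CPM in AdWT and 1.51, 0.461 and 1.08 CPM in AdKO, a log2 fold change of -0.45 (SE 0.457). A second *Sc5d* row of similar total, 86 against 113 counts, gave 0.099 (SE 0.462), and the rows summed gave -0.21 (SE 0.357). *Tm7sf2*, a reductase for the same reaction as *Lbr*, had 4 rows, all at 0. Among the genes of the further lists below, *Lipa*, *Ufd1l* and *Gramd1a*, which many cell types use, were likewise listed at 0 in all 6 libraries, so a 0 in this table may not reflect a gene's level and no limit is given for *Tm7sf2*.

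**Figure D3:**
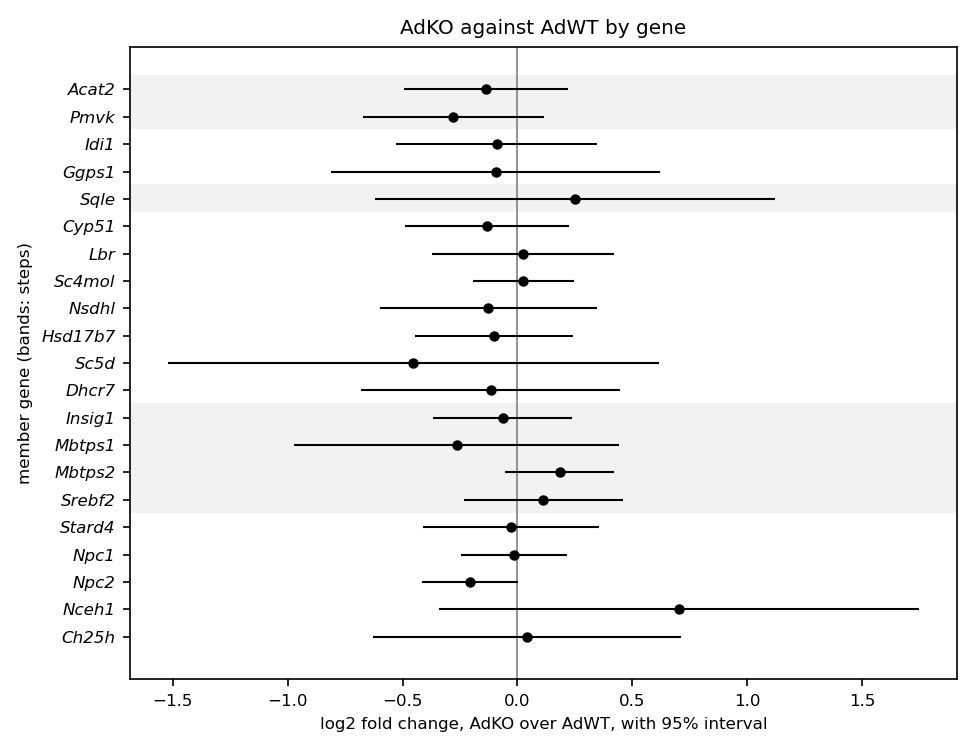
Log2 fold change of the 21 tested genes, AdKO over AdWT, with 95% intervals from edgeR, in pathway order with shading that alternates by step. Every interval includes 0, and that of *Npc2*, from -0.41 to 0.0046, comes closest to excluding it.

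Many of the synthesis enzymes were lowest in the same library of each group. Of the 9 enzymes with a mean count of at least 100, all 9 had their lowest AdWT value in replicate 3, where 36.0% of the 5383 rows with such a mean count had theirs. Of the same 9, 7 had their lowest AdKO value in replicate 1, against 32.0% of rows. Of the 3 enzymes with fewer counts, 1 (*Sc5d*) was lowest in AdWT replicate 3. The low values there were not particular to enzymes, since 5 of the 7 other members with such a mean count (*Insig1*, *Mbtps2*, *Npc1*, *Npc2* and *Nceh1*) were also lowest in AdWT replicate 3, and 2 of the 7 were lowest in AdKO replicate 1. Averaged over the 9 genes, the deviation of log2 CPM from each gene's mean over all libraries was 0.15, 0.24 and -0.26 in AdWT and -0.14, 0.051 and -0.036 in AdKO. The range within AdWT was therefore wider than that between any pair of AdKO libraries. These enzymes share libraries and scaling, so this is a description of 6 libraries and not a test. Several marker lists moved with or against these averages, not always in both groups. The macrophage list was lowest in AdWT replicate 3, at 358 CPM against 570 and 752 CPM, and in AdKO replicate 1, at 634 CPM against 775 and 787 CPM. The lymph node and B cell list (5 of 5 with a row) had 15.9, 6.58 and 5.15 CPM in AdWT and 5.64, 11.1 and 5.71 CPM in AdKO. It was lowest in the same libraries, although AdKO replicates 1 and 3 were nearly equal. Of its tested genes, *Cd3e* was lowest in these libraries, whereas *Cd79a* was lowest in AdWT replicate 2 and AdKO replicate 3, at 0.658 and 0.841 CPM. The hepatocyte and adipocyte lists were highest in AdWT replicate 3. In AdWT the fibroblast and progenitor list (3 of 4 markers with a row) summed to 2477, 2981 and 4110 CPM. In AdKO it summed to 3447, 3307 and 2693 CPM. This sum was highest in the library of each group where the enzymes averaged lowest. Most of it was *Dpt*, at 2381, 2904 and 4036 CPM in AdWT. *Pi16* ran the other way in AdWT, at 95.7, 75.9 and 73.7 CPM, but was also highest in AdKO replicate 1. *Pdgfra*, below the filter, was highest in AdKO replicate 3, at 0.781 CPM. The skeletal muscle list given above followed the order of the enzyme averages in all 3 AdWT libraries. In AdKO its order was the reverse, at 3.30, 2.57 and 3.06 CPM. The endothelial list (2 of 4, nearly all *Cdh5*) was lowest in AdWT replicate 3, at 789 CPM against 873 and 1156 CPM. In AdKO it was lowest in replicate 3 instead, at 945, 1094 and 771 CPM. The Schwann cell list (2 of 4) had 71.2, 65.6 and 79.1 CPM in AdWT and 80.4, 69.0 and 81.6 CPM in AdKO. The part of these lists in the pattern was not tested.

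**Figure D4:**
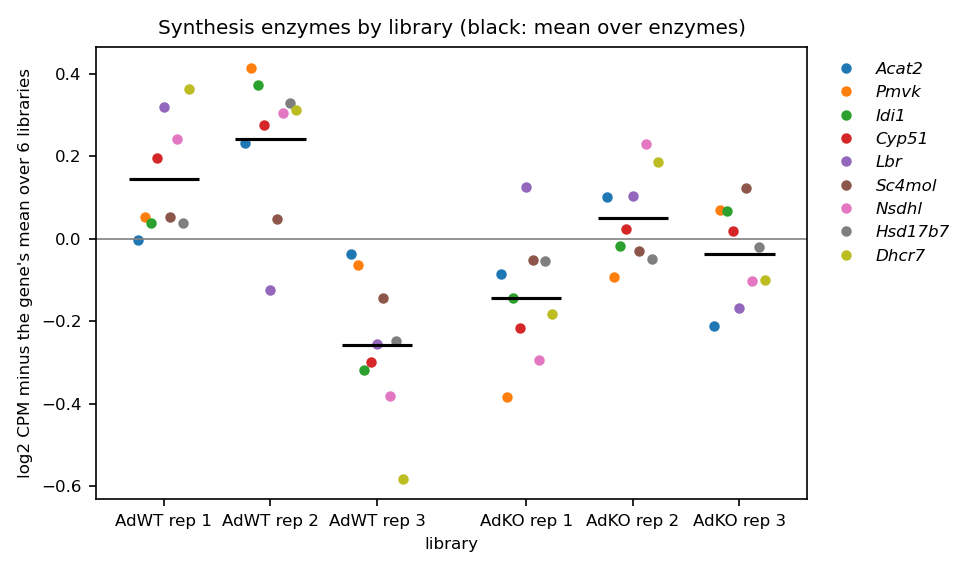
Deviation of log2 CPM from the gene's mean over all 6 libraries, by library, for the 9 synthesis enzymes with a mean count of at least 100, each colour 1 enzyme and the black dash the mean over enzymes. All 9 points of AdWT replicate 3 lie below 0, with a mean of -0.26, while AdWT replicate 2 averages 0.24.

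The number of enzymes lower in AdKO moved with the library left out. Of the 12 enzymes tested, 9 were lower in AdKO and the median of their log2 fold changes was -0.11. Without AdWT replicate 3, 11 of 12 were lower, the median was -0.25, and *Cyp51* (-0.30, SE 0.0967) and *Dhcr7* (-0.37, SE 0.120) had unadjusted *p* values of 0.0178 and 0.0174 by edgeR, with adjusted *p* at 0.941 for both, in a fit where 4.9% of all rows had an unadjusted *p* under 0.05. The library removed here was the one lowest for these enzymes in AdWT, so smaller *p* values follow from that choice. Without AdWT replicate 2, 7 of 12 were lower and the median was -0.018. No enzyme was called at an adjusted *p* under 0.05 in either case.

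Promoters of 5 members are shown as examples, 3 of enzymes and 2 of *Insig1* and *Npc2*, the highest per length of the 9 members with 1 row. They were taken from members with 1 promoter window whose printed bases match no annotated coding transcript, not for how the genes varied, and *Lbr* was highest, not lowest, in AdKO replicate 1. RefSeq promoter windows from GRCm38.p6, from 250 bases before to 50 bases after each annotated start, were matched to 28 of the member symbols. The 180 bases before the start follow, in the direction of transcription, with matches to CCAAT (the core motif of the factor NF-Y) and to GGGCGG (that of Sp1) on either strand in capitals.
*Nsdhl* (chrX:72918341-72918520, plus strand): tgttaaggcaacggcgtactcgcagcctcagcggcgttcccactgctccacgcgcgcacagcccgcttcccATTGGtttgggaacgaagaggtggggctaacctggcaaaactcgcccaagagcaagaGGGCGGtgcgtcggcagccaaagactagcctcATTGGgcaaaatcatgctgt
*Idi1* (chr13:8885426-8885605, plus strand): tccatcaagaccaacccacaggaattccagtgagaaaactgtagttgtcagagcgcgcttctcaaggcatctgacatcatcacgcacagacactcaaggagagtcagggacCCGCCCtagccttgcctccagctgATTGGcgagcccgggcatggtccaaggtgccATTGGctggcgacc
*Lbr* (chr1:181842402-181842581, minus strand): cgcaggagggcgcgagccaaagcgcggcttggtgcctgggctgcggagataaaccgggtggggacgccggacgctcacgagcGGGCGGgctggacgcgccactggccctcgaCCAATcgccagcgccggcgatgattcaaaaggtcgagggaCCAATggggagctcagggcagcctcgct
*Insig1* (chr5:28071232-28071411, plus strand): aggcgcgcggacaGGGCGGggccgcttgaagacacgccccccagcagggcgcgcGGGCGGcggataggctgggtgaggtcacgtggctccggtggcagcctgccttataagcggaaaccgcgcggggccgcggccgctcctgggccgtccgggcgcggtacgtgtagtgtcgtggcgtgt
*Npc2* (chr12:84773113-84773292, minus strand): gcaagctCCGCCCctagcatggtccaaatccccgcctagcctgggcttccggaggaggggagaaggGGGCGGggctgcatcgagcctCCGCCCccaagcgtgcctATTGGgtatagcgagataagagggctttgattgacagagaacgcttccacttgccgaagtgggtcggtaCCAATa

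*Nsdhl*, *Idi1* and *Lbr* each held 2 CCAAT matches and 1 GGGCGG match in this stretch, *Insig1* held 2 GGGCGG matches, and *Npc2* held 2 CCAAT and 3 GGGCGG matches. Over the full windows, CCAAT was found on either strand in 23 of 28 members (82.1%), against 41.1% of all 27025 symbols and 40.7% of the 6328 tested symbols with a window. GGGCGG was also found in 23 of 28 members (82.1%), against 38.2% of all symbols and 66.8% of tested ones. No match of one overlapped a match of the other in these members. The 9-letter core of the sterol regulatory element, TCACCCCAC, was found in 1 of the 28, *Hmgcs1*, against 0.614% of all symbols, and the form with any base in the middle, TCACNCCAC, also in *Hmgcs1* alone, against 1.44%. A match describes letters in a window and does not show binding.

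Sterol sensing and the processing of the *Srebf2* product were represented by 4 tested genes, 2 higher and 2 lower in AdKO. *Insig1* had 855, 1114 and 796 CPM in AdWT and 877, 916 and 855 CPM in AdKO. All 3 AdKO values fell within the AdWT range, which was wider, with a coefficient of variation of 18.3% against 3.52%. Its log2 fold change was -0.063 (SE 0.129, 95% interval -0.37 to 0.24). *Srebf2* had 9.55, 8.31 and 9.57 CPM in AdWT and 9.76, 8.83 and 11.1 CPM in AdKO, a log2 fold change of 0.11 (SE 0.148). A second *Srebf2* row of nearly the same total, 843 against 888 counts, had 8.31, 9.15 and 8.10 CPM in AdWT and 9.62, 9.68 and 9.31 CPM in AdKO. In that row every AdKO value was above every AdWT value, whereas the groups overlapped in the first. The second row gave a log2 fold change of 0.16 (SE 0.130) with an adjusted *p* of 0.859 by edgeR, and the rows summed gave 0.14 (SE 0.0944). *Insig2*, a second brake, had 2, 5 and 3 counts in AdWT and 3, 1 and 3 counts in AdKO. *Erlin1*, a membrane protein that takes part in sterol-dependent degradation, had 1, 3 and 4 counts and 1, 3 and 3 counts.

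*Mbtps2*, the intramembrane protease that makes the final cut in the precursor, had 24.2, 22.8 and 20.6 CPM in AdWT and 25.2, 24.7 and 26.9 CPM in AdKO. Every AdKO value was above every AdWT value. The log2 fold change was 0.18 (SE 0.101), edgeR's adjusted *p* was 0.853, and a two-sided exact permutation test gave *p* = 0.1, the smallest that 3 against 3 allows. A second *Mbtps2* row with 65 counts gave 0.50 (SE 0.497), and the rows summed gave 0.20 (SE 0.104). *Mbtps1*, the protease that cuts first, ranged from 1.05 to 2.01 CPM in AdWT and from 1.19 to 1.58 CPM in AdKO, with a log2 fold change of -0.26 (SE 0.303).

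Of the genes that move, store or oxidise sterol, 5 were tested, with 2 higher and 3 lower in AdKO. *Npc2* had 2502, 2444 and 2185 CPM in AdWT and 2077, 1981 and 2129 CPM in AdKO. All AdKO values lay below all AdWT values, with AdWT replicate 3 the nearest to them. AdKO was at 0.868 times AdWT (95% interval 0.750 to 1.003), a log2 fold change of -0.20 (SE 0.0896), with an unadjusted *p* of 0.0540 and an adjusted *p* of 0.851 by edgeR and *p* = 0.1 by the exact permutation test. The unadjusted *p* fell under 0.05 in 6 of 16 alternative analyses. In the edgeR fits among these, 4.32% to 5.71% of all rows did the same. *Npc2* lies on chr12:86095510-86114062 of mm9, on the minus strand. *Npc1*, the membrane protein to which *Npc2* delivers cholesterol, had 157, 133 and 131 CPM in AdWT and 126, 141 and 150 CPM in AdKO, a log2 fold change of -0.014 (SE 0.0990) and a 95% interval of -0.25 to 0.22. The difference between these partners was not tested.

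*Nceh1*, a hydrolase that frees cholesterol from its esters and is known from macrophages, showed the largest log2 fold change and the widest spread of the members, and was singled out after its values were seen. It had 71.8, 46.0 and 17.4 CPM in AdWT and 56.7, 68.8 and 94.6 CPM in AdKO. The groups overlapped, since AdWT replicate 1 exceeded 2 of the AdKO libraries, and AdWT itself spanned 4.13-fold. The log2 fold change was 0.70 (SE 0.447, 95% interval -0.34 to 1.75), and edgeR's adjusted *p* was 0.853. Its spread within groups on the log2 scale, 0.774 (SD), was above that of 98.6% of the rows with a mean count of at least 100. Leaving out 1 library at a time moved it between 0.31, with AdWT replicate 3 removed, and 1.21, with AdWT replicate 1 removed, and in the latter case the unadjusted *p* was 0.0252 and the adjusted *p* 0.396, in a fit where 11.8% of all rows had an unadjusted *p* under 0.05.

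The macrophage list summed to 752, 570 and 358 CPM in AdWT and to 634, 787 and 775 CPM in AdKO. Within AdWT this sum had the same order as *Nceh1*, whereas in AdKO the highest library differed. The list names 6 symbols but 5 genes, since *Adgre1* is the later name of *Emr1*. The defining *Emr1* was at 0 in all libraries over 6 rows, *Cd68* had no row analysed here, and the 3 tested (*Mrc1*, *Lyz2* and *Csf1r*) were all higher in AdKO without passing the test. The part of macrophage content in the *Nceh1* values was not tested.

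**Figure D5:**
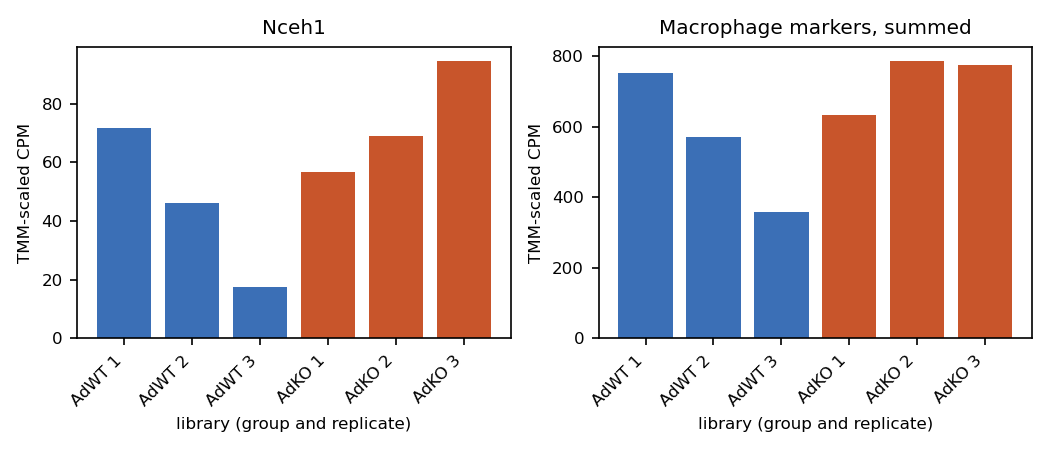
*Nceh1* (left) and the sum of the macrophage markers (right) in TMM-scaled CPM, each bar 1 library, AdWT in blue and AdKO in orange. AdWT replicate 3 is lowest in both panels, at 17.4 and 358 CPM.

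The sterol carrier *Stard4* ranged from 9.88 to 13.6 CPM in AdWT and from 9.95 to 11.8 CPM in AdKO, and *Ch25h* from 0.956 to 1.18 CPM and from 0.790 to 1.26 CPM. Their log2 fold changes, -0.027 (SE 0.164) and 0.041 (SE 0.286), were below their errors. The median biological coefficient of variation was 0.171 over the members tested, beside 0.174 over all rows. Ranked by their spread within groups among rows with a mean count of at least 100, however, 13 of 16 members lay above the middle row, with a median percentile of 70.5 and a range from 23.2 for *Npc2* to 98.6 for *Nceh1*. The synthesis enzymes *Dhcr7* and *Nsdhl* were at the 93.7 and 89.4 percentiles.

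Neighbouring pathways were read from 3 further lists with 44 genes, of which 38 had a row and 28 were tested. Here 11 were higher and 17 lower in AdKO, the median log2 fold change was -0.034, and the number at an unadjusted *p* under 0.05 was 0. Among enzymes that use isoprenoids or resemble the thiolase, 6 of 13 tested were higher and 7 lower, with a median of -0.0030. Among components of sterol-regulated degradation in the endoplasmic reticulum, 2 of 8 were higher and 6 lower, with a median of -0.046. Among sterol carriers and genes of lysosomal release, 3 of 7 were higher and 4 lower, with a median of -0.087.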

How the data were processed

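RNA-Seq was performed by the authors on iWAT with the KAPA Stranded kit, and reads were aligned to mm9 with HISAT2. The deposited values are raw counts per row, without normalization. The submitters' processing notes name mm9 and DESeq2, and the counting tool is not given in the sources used here. All 6 libraries were compared, AdKO against AdWT, on counts with edgeR 4.0.16 in R 4.3.3 (limma 3.58.1): filterByExpr by group, TMM scaling, glmQLFit and glmQLFTest, and Benjamini-Hochberg adjustment over all 9872 rows tested, with a threshold of 0.05. Each SE was taken as log2 fold change over the root of the F statistic, and intervals cover 95%. Exact permutation tests were two-sided, on log2 CPM with 0.5 added. edgeR and DESeq2 1.42.0 were tested on simulated data with a random seed of 1. Tables used Python 3.11.15 with pandas 2.3.3, numpy 2.4.6 and scipy 1.17.1, and plots matplotlib 3.10.9. A symbol carried by more than 1 row was represented by its most abundant row. Coordinates and exon lengths came from GENCODE M1 (NCBIM37, which is mm9), matched by symbol, and promoters from RefSeq (GRCm38.p6).

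The members and lists were chosen with earlier results of these data known. Values of each library were given for members with an unadjusted *p* under 0.05 or without overlap between groups, the 3 highest per length, *Srebf2*, *Insig1*, *Insig2* and members below the filter. Values of further members, and the mean count of 100 that defined the enzyme pattern, were chosen after the data were seen. The alternatives left out each library in turn, summed the rows of a symbol, added the replicate number as a block, used a robust fit, required at least 10 counts in every library or 1 count in any, scaled by library size, upper quartile or RLE, or replaced edgeR by DESeq2, both as it stands and with Cook's cutoff and independent filtering switched off.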

Additional observations from a re-analysis of the deposited data

How the results depend on the processing

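No member tested passed an adjusted *p* of 0.05 under any of the 16 alternatives. Of 334 log2 fold changes compared, 313 kept their direction and 21 reversed, all 21 by values of at most 0.116 in size, and 11 of 21 genes never reversed. The number of rows called, 0 in the report, was 17 by DESeq2 with its defaults, 13 without Cook's cutoff and independent filtering, and 1 with a filter of at least 1 count in any library. It ranged from 0 to 1 when a library was left out (1 without AdKO replicate 3). The number of members at an unadjusted *p* under 0.05, also 0, was 1 (*Npc2*) in 5 of the other alternatives. Of all rows, 5.71% were under 0.05 with RLE scaling, 5.64% with upper quartile scaling and 4.32% with the filter of at least 1 count. By DESeq2 473 rows were with its defaults, and 2.43% of rows without Cook's cutoff and independent filtering. When a library was left out, the number of members ranged from 0 to 3. It was 1 (*Nceh1*) without AdWT replicate 1, where 11.8% of all rows were under 0.05. It was 3 (*Cyp51*, *Dhcr7* and *Npc2*) without AdWT replicate 3, where 4.9% were. The members' median ranged from -0.11 to -0.009, the latter without AdWT replicate 2, where 10 members were higher and 11 lower. Scaling by library size alone moved the median of all rows from 0.0071 to 0.054 and gave 9 members higher and 12 lower, with *Stard4* at 0.029 and *Npc1* at 0.029.

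With 1 library left out, *Dhcr7* ranged from -0.37 to 0.043, *Npc1* from -0.071 to 0.074, *Idi1* from -0.26 to 0.099, *Lbr* from -0.099 to 0.22, *Hsd17b7* from -0.24 to 0.054, *Insig1* from -0.17 to 0.091, *Stard4* from -0.12 to 0.12, *Ch25h* from -0.075 to 0.22, *Sc4mol* from -0.044 to 0.061 and *Ggps1* from -0.34 to 0.044. Genes that never reversed moved too. *Sc5d* ranged from -0.84 to -0.12, *Sqle* from 0.086 to 0.50 and *Mbtps1* from -0.50 to -0.11. For *Nsdhl* the range was -0.32 to -0.0086, and for *Srebf2* 0.024 to 0.18. The cause of these shifts was not tested. Deviations of same-numbered libraries correlated at -0.0764, -0.132 and 0.330 for replicates 1, 2 and 3, so that of these pairs only replicate 3 deviated together. A pair with different numbers, AdWT replicate 1 and AdKO replicate 2, correlated more highly, at 0.411. The numbers were not taken to pair the samples. With the replicate block the members' median was -0.066, 0 rows were called, and 418 rows had an unadjusted *p* under 0.05 against 566 without the block. The common biological coefficient of variation was 0.196, and the 5 members near 1 CPM had SEs from 0.286 to 0.457.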
